A study of Caenorhabditis elegans with 2 samples.

Results

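The BAG neurons are a bilateral pair of gas-sensing neurons in the head of Caenorhabditis elegans, and DMD-9 is a DM-domain transcription factor known to be made in them. DMD-9 occupancy was examined at 10 listed genes of these neurons, of 19973 protein-coding genes on the 6 nuclear chromosomes. The genes were listed by name for their known roles, with earlier results of these data known: the guanylate cyclases gcy-33, gcy-31 and gcy-9, the transcription factors ets-5 and egl-13, the neuropeptide genes flp-17, flp-13 and flp-19, and the channel subunit genes tax-2 and tax-4. Chromatin immunoprecipitation with an anti-GFP antibody and sequencing (ChIP-seq) was done on whole L4 larvae, 48 hours old, of strain RJP5357, in which CRISPR placed GFP, AID, TEV and 3xFLAG at dmd-9 on chromosome IV (allele rp169). The worms had been bleached and held as starved L1 larvae for synchrony, and the chromatin was sonicated to between 200 and 800 bp. There was 1 group of 2 biological replicates and no other strain, stage or treatment, so no condition was compared and no test between groups exists. The BAG pair makes up a very small share of a whole larva, so a site bound in BAG alone and a site bound weakly in many cells cannot be told apart in this chromatin.

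As background, BAG neurons sense a fall in oxygen and a rise in carbon dioxide. Soluble guanylate cyclases respond to oxygen and a receptor-type cyclase responds to carbon dioxide. The cyclic GMP they make opens a cation channel, and the excited neuron releases neuropeptides that change locomotion and egg laying. The ETS-family factor ETS-5 and the SOX-family factor EGL-13 set up this gene programme during development. DMD-9 belongs to a family of factors that share a zinc-binding DNA-binding domain with Doublesex and MAB-3.

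A peak was given to a gene when its summit lay in the gene or within 2000 bp upstream of the gene's 5' end. The authors deposited a long ranked list of peaks and a short thresholded list for the pooled replicates and for each replicate. A thresholded peak is one that was reproducible at a global irreproducible discovery rate (IDR) under 0.01. Such a peak need not be strong. In the pooled thresholded list the highest q-value was 0.958 and the lowest signal 2.11. Of the 10 BAG genes, 2 had a pooled thresholded peak, gcy-33 and ets-5, against 7.37% of all protein-coding genes. Both peaks lay upstream of the gene and beside a gene for an isoleucine transfer RNA (tRNA). The other 8 BAG genes, gcy-31, gcy-9, egl-13, flp-17, flp-13, flp-19, tax-2 and tax-4, had no thresholded peak in the pooled list or in either replicate. Where these had a pooled ranked peak, the q-value of the strongest ran from 0.650 (gcy-9) to 0.941 (tax-2). It was 0.0227 at gcy-33 and at ets-5.

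The sequences of these peaks are shown because the BAG result rests on them. Both are 284 bp long, are read from the RefSeq copy of the WBcel235 genome (the same coordinates as ce11) and are written 5′ to 3′ on the forward strand. Capitals mark the tRNA gene. The gcy-33 peak, chrV:12002002-12002285, has F57F5.t1 near its right end, transcribed left to right. The ets-5 peak, chrX:5085569-5085852, has C42D8.t1 toward its left end, transcribed right to left.
gcy-33 peak: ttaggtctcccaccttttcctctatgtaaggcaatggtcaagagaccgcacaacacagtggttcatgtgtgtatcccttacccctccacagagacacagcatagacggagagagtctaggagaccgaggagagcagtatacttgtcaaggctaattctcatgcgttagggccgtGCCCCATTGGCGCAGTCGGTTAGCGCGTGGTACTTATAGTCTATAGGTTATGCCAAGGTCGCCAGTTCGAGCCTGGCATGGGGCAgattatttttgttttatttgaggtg
ets-5 peak: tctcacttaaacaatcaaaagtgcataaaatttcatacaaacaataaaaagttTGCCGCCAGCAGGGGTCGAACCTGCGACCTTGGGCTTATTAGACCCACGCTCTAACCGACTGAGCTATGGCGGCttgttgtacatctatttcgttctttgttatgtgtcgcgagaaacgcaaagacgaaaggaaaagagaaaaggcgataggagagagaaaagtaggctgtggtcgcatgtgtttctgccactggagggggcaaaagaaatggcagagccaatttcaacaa

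Both sequences had 1 exact copy in the genome. The tRNA gene of the gcy-33 peak also had 1 exact copy. The 74-bp tRNA gene of the ets-5 peak was 1 of 20 identical copies, so its flanks, not its body, tell this locus from the others. The B box of tRNA genes, an internal promoter element bound by TFIIIC, was searched for as GTTCGANNC on both strands. It began at base 239 of the gcy-33 peak and at base 66 of the ets-5 peak, inside the capitals of each.

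**Figure D1:**
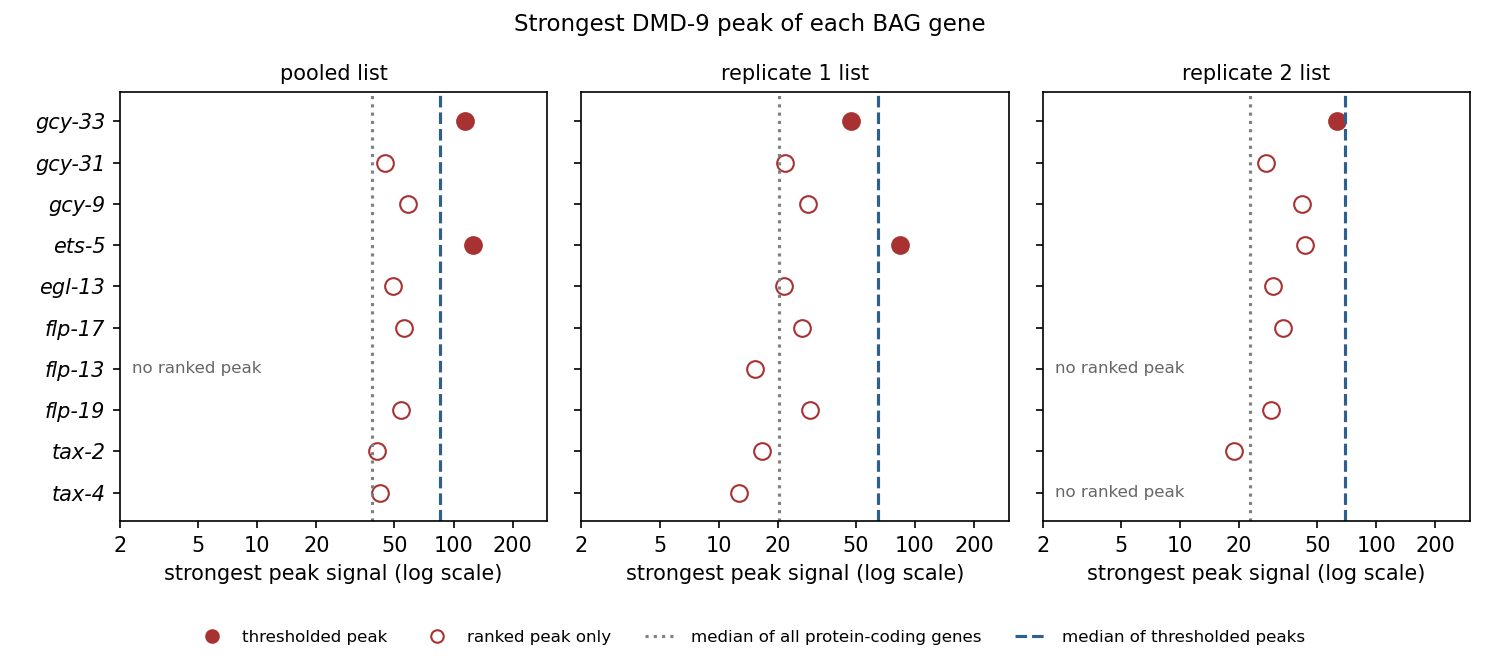
Signal of the strongest ranked peak of each BAG gene (x axis, log scale) in the pooled list and in each replicate's list, with filled circles for peaks that passed the threshold, a dotted line at the median of the strongest peaks of all protein-coding genes (38.6, 20.2 and 22.7) and a dashed line at the median of the thresholded peaks (85.4, 64.8 and 69.5). In the pooled list gcy-33 at 114 and ets-5 at 125 stand to the right of both lines and the other genes with a peak between them, and in replicate 2 ets-5 at 43.1 is an open circle.

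Among the guanylate cyclases, gcy-33 encodes a soluble cyclase that BAG neurons use to sense low oxygen. It lies on chromosome V at 11995805-12001797, on the reverse strand. Its strongest peak had a signal of 114 in the pooled list, 47.5 in replicate 1 and 63.2 in replicate 2. The peak passed the threshold in all of these lists, with a global IDR of 0.000737, 0.00722 and 0.00243. Signals are the authors' own values and are not scaled between lists, so lists are compared by rank. The gcy-33 peak ranked 412 of 112594 pooled peaks, 612 of 58574 in replicate 1 and 360 of 61188 in replicate 2. This placed it at the 97.4th, 96.4th and 97.8th percentile of the strongest peaks of all protein-coding genes. The summit lay 347 bp upstream of gcy-33 in the pooled list, at -340 in replicate 1 and at -333 in replicate 2 (negative is upstream), so both replicates put it at the same site.

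The gcy-33 summit fell between divergent genes. The next protein-coding gene, cpr-9, starts 909 bp away on the other side, so the same peak was also in the window of cpr-9. The summit was 32 bp from the 5' end of F57F5.t1, outside that tRNA gene and upstream of it, and within F57F5.7, an annotated non-coding RNA gene on the reverse strand. F57F5.t1 and gcy-33 are on opposite strands with 379 bp between their 5' ends. The gcy-33 window held 3 pooled ranked peaks, and the next strongest had a signal of 37.9. All 3 were upstream of gcy-33, so no pooled ranked peak lay in the gene itself.

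The soluble cyclase gcy-31, which acts with gcy-33 in oxygen sensing, lies on chromosome X at 2419955-2427504. Its strongest pooled peak had a signal of 44.9, at position -891, with an IDR of 0.0858. The strongest peak of gcy-31 had a signal of 21.7 in replicate 1 and 27.5 in replicate 2, at sites that overlap the pooled one. The IDR was 0.921 in replicate 1 and 0.197 in replicate 2. The pooled, replicate 1 and replicate 2 signals are the 65.4th, 56.8th and 69.4th percentile of all genes. Among genes with a window of like length (within 20% of its 9550 bp), the pooled percentile of gcy-31 was 43.3, so it was below the middle for its length.

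The receptor-type cyclase gcy-9, needed for the BAG response to carbon dioxide, lies on chromosome X at 11332110-11337883. Its strongest pooled peak had a signal of 58.6 and an IDR of 0.136, in an intron 4308 bp from the 5' end. The strongest gcy-9 peak had a signal of 28.5 in replicate 1 and 41.9 in replicate 2. The replicate 2 peak was at the pooled site, which overlapped no ranked peak of replicate 1. The replicate 1 peak was in an intron at 1305 bp, so the replicates did not give gcy-9 the same leading site. The percentile of gcy-9 was 86.8 pooled, 82.0 in replicate 1 and 93.7 in replicate 2. Among the BAG genes without a pooled thresholded peak, it was the highest in the pooled list and in replicate 2. In replicate 1 flp-19 was higher, at 83.6. A pooled thresholded peak of signal 70.5 lay upstream of gcy-9 beyond its window, at -3278, inside the neighbouring gene aco-1, at chrX:11341019-11341302. Its pooled q-value was 0.284. Its IDR was 0.274 in replicate 1 and 0.0340 in replicate 2, over the threshold in each. It was 1287 bp from the 5' end of aco-1, which encodes a cytosolic aconitase, and was 88499 bp from the nearest tRNA gene.

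Of the transcription factors, ets-5 lies on chromosome X at 5076635-5084526, on the reverse strand. Its strongest peak had a signal of 125 in the pooled list, 83.7 in replicate 1 and 43.1 in replicate 2. The peak ranked 339 of the pooled peaks and 149 in replicate 1, with IDRs of 0.000581 and 0.000199. In replicate 2 it ranked 1054, with an IDR of 0.593, and did not pass. The replicates therefore placed the summit at the same site, -1170 and -1177, but disagreed on the call. Its percentiles among all genes were 97.8 pooled, 99.1 in replicate 1 and 94.3 in replicate 2.

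The signal at ets-5 leaned to replicate 1 more than at most sites. The ratio of the unscaled replicate 1 signal to the replicate 2 signal was 1.94 at ets-5 and 0.751 at gcy-33. Over the 1342 pooled thresholded peaks that overlap a ranked peak in both replicates, the median ratio was 0.913 (quartiles 0.712 and 1.14). The ets-5 ratio was at the 98.0th percentile of these and the gcy-33 ratio at the 30.7th. Whether the 20 identical copies of the tRNA gene at ets-5 had a part in this was not tested.

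The ets-5 summit was 1185 bp upstream of ets-5 and 2130 bp from the next gene, pnk-4, which is outside the reach of the peak by the rule used. It was 16 bp upstream of the 5' end of C42D8.t1, which is on the same strand as ets-5, 1169 bp between their 5' ends. It was 10 bp from C42D8.14, an annotated non-coding RNA gene on the other strand. The ets-5 window held 11 pooled ranked peaks. The next strongest, in an intron, had a signal of 61.5 pooled, 30.3 in replicate 1 and 27.7 in replicate 2, with an IDR of 0.0383, and did not pass.

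The SOX-family gene egl-13, on chromosome X at 5663837-5674067, is the longest of the BAG genes. It had 17 pooled ranked peaks, the most of the 10, and its strongest had a signal of 48.9 and an IDR of 0.161, in an intron. The strongest egl-13 peak had a signal of 21.5 in replicate 1 and 29.7 in replicate 2, at overlapping sites, with IDRs of 0.848 and 0.572. The percentile of egl-13 was 73.9 pooled, 56.0 in replicate 1 and 76.3 in replicate 2 among all genes. Among genes of like window length it was 47.2 pooled, 23.1 in replicate 1 and 52.5 in replicate 2, so egl-13 was near the middle for its length in the pooled list and replicate 2 and well below it in replicate 1.

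**Figure D2:**
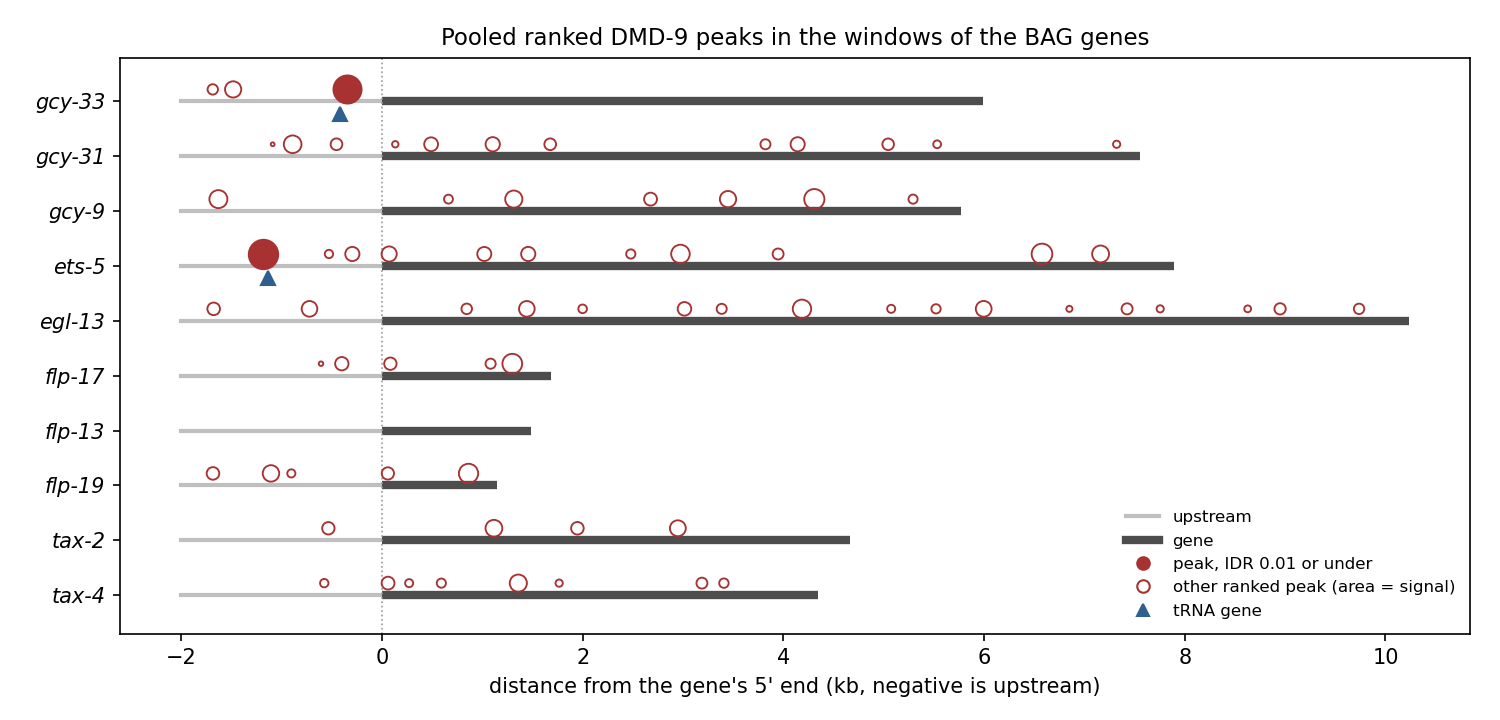
Pooled ranked peaks along the window of each BAG gene, drawn by distance from the gene's 5' end (x axis, kb), with the area of a circle in proportion to its signal. The filled circles, the only peaks that passed the threshold, sit beside the only tRNA genes (triangles), upstream of gcy-33 and ets-5, and flp-13 has no peak.

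Of the neuropeptide genes, flp-17 encodes FMRFamide-like peptides that BAG neurons release and that inhibit egg laying through the receptor EGL-6. It lies on chromosome IV at 17190204-17191891. Its strongest pooled peak, in a coding exon, had a signal of 56.0 and an IDR of 0.0374. The strongest flp-17 peak had a signal of 33.3 in replicate 2 at the same site and 26.5 in replicate 1, where it was at -393. Replicate 1 also had a ranked peak at the pooled site, of signal 22.1. The strongest peak of flp-19, which encodes peptides made in BAG and other sensory neurons and lies on chromosome X at 10604686-10605831, was also in a coding exon. It had a signal of 53.7 pooled, 29.2 in replicate 1 and 29.1 in replicate 2, at 1 shared site, with a pooled IDR of 0.0524. The IDR of this flp-19 peak was 0.295 in replicate 1 and 0.817 in replicate 2. These short genes stood at the 84.2nd and 81.6th percentile of all genes, and at the 88.2nd and 87.8th among genes of like window length.

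The gene flp-13, on chromosome IV at 7696932-7698420, encodes peptides known for their part in stress-induced sleep. It had no ranked peak in the pooled list or in replicate 2, and 1 of signal 15.3 in replicate 1, in a coding exon. Of all protein-coding genes, 2411 (12.1%) likewise had no pooled ranked peak. The peak nearest to flp-13 that passed the threshold was 124348 bp from its 5' end, the longest such distance among the 10 genes. Thresholded peaks were also far from the 5' ends of tax-2 (30334 bp), egl-13 (44211 bp) and gcy-31 (62615 bp), and those nearest to tax-2 and egl-13 again touched a tRNA gene. For flp-19, flp-17 and tax-4 the nearest lay upstream, at -48964, -58019 and -70472.

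The genes tax-2 and tax-4 encode the subunits of the cyclic nucleotide-gated channel that turns cyclic GMP into a current. The gene tax-2 lies on chromosome I at 9020945-9025608 and tax-4 on chromosome III at 9181546-9185888, both on the forward strand. The strongest pooled tax-2 peak, in an intron, had a signal of 40.6 and an IDR of 0.336. At that site the signal was 15.2 in replicate 1 and 18.8 in replicate 2. The strongest tax-2 peak of replicate 1 was a different one, in a coding exon 2859 bp from the 5' end, with a signal of 16.6. The strongest pooled tax-4 peak, in a coding exon, had a signal of 42.4 and an IDR of 0.553. That peak overlapped no ranked peak of either replicate. In replicate 1 the strongest peak of tax-4 had a signal of 12.7, and in replicate 2 tax-4 had none. These channel genes were the lowest of the BAG genes with a pooled ranked peak, and they stood lower in the replicates. The percentile of tax-2 was 54.7 pooled, 33.4 in replicate 1 and 34.7 in replicate 2. That of tax-4 was 59.4 pooled, 21.4 in replicate 1 and 8.56 in replicate 2, so tax-4 was above tax-2 in the pooled list and below it in both replicates.

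By pooled signal the order was ets-5, gcy-33, gcy-9, flp-17, flp-19, egl-13, gcy-31, tax-4, tax-2 and flp-13. The order of ets-5 and gcy-33 was turned in replicate 2, where gcy-33 had 63.2 and ets-5 43.1, so the order of these neighbours rests on replicate 1. In replicate 2, gcy-9 at 41.9 was close to ets-5. In replicate 1 the gap was wide, with 83.7 at ets-5, 47.5 at gcy-33 and 29.2 at flp-19, which was next. Over the 10 genes, the median percentile was 77.7 pooled, 66.7 in replicate 1 and 75.4 in replicate 2. Against genes of like window length it was 64.0, 54.7 and 67.8. The windows of the BAG genes had a median of 7219 bp against 4027 bp for all genes.

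The BAG windows held 72 pooled ranked peaks in all, with signals of 2.09 to 125 and a median of 22.1, beside a median of 22.5 over the whole ranked list. Of these peaks, 31 were in introns, 19 upstream and 17 in coding exons. Ranked peaks of both replicates overlapped 20 of the 72 (27.8%), close to the 28.6% of the whole list, and 24 overlapped none. The count of 24 has no share of the whole list beside it. Some neighbouring pooled peaks, such as those of gcy-33 at -1484 and -1687, overlapped the same replicate peaks and were each counted. Peak density in the BAG windows was near that elsewhere, with a median of 11.8 per 10 kb against 12.3 for all genes. At gcy-33 the density was 3.75 per 10 kb, so its window held few peaks beside the strong one.

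Counted in other lists, the BAG genes with a thresholded peak were gcy-33 and ets-5 in replicate 1, against 3.58% of all genes, and gcy-33 in replicate 2, against 3.35%. The gene gcy-33 was the only 1 of the 10 with a thresholded peak in both replicates, against 2.48% of all genes. The authors' conservative list again had gcy-33 and ets-5, against 7.17%. Genes of like window length carried a pooled thresholded peak in 11.6% of cases for gcy-33 and 14.0% for ets-5. For the other BAG genes this share ran from 4.94% (flp-19) to 15.2% (egl-13), and it was below the 7.37% of all genes for the 3 short neuropeptide genes. With 10 genes, a count of 2 against these shares is a description.

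The tRNA genes set these loci apart within the BAG genes. Only gcy-33 and ets-5 had a tRNA gene in the window. The nearest tRNA gene to the other 8 was between 30308 bp (tax-2) and 415732 bp (flp-17) from the 5' end. Of all protein-coding genes, 411 (2.06%) had a tRNA gene in the window, and 207 of these (50.4%) had a thresholded peak. Among the 19562 genes without one, 1265 (6.47%) had a thresholded peak. When peaks within 100 bp of a tRNA gene were left out, 0 of the 10 BAG genes had a thresholded peak, against 6.50% of all genes. Whether the signal at these sites came from DMD-9 itself was not tested, since no group of worms without the GFP tag was present. Whether DMD-9, if bound there, acts on the BAG gene, on the tRNA gene or on neither was also not tested. Binding beside a tRNA gene and binding in the upstream region of the BAG gene cannot be told apart here.

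**Figure D3:**
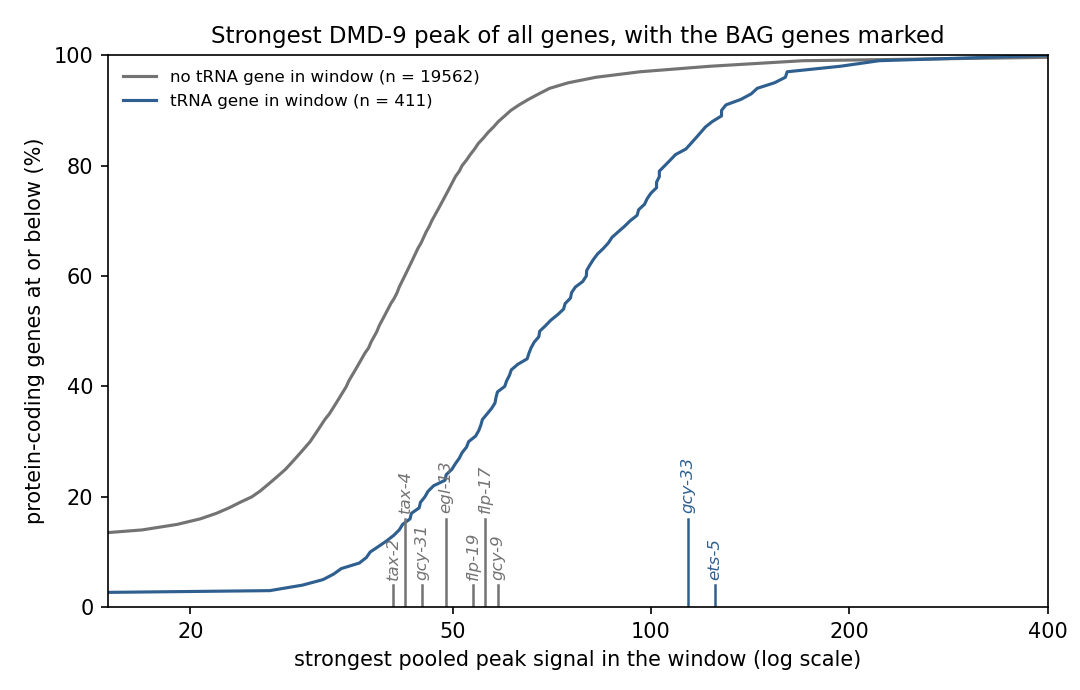
Share of protein-coding genes (y axis, %) whose strongest pooled peak is at or below a signal (x axis, log scale), for genes with and without a tRNA gene in the window, with the BAG genes marked at their own signals. Genes with a tRNA gene lie to the right, with a median of 67.8 against 38.4, and gcy-33 and ets-5, the blue marks, lie above both medians.

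These peaks were within the range seen at other tRNA genes. Of 612 tRNA genes, 232 (37.9%) had a pooled thresholded summit within 100 bp, as did 12 of 29 isoleucine tRNA genes (41.4%). The 221 peaks at these genes had signals of 2.75 to 228 with a median of 96.6, and gcy-33 and ets-5 were at the 70.4th and 77.6th percentile of them. The usual summit lay within the tRNA gene, with a median of 25.0 bp from its 5' end and quartiles of 0 and 46.0 bp. The summits at gcy-33 and ets-5 lay upstream of the tRNA gene's 5' end, as did 52 of the 221 (23.5%).

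The genes whose peaks were most like that of gcy-33 in pooled, replicate 1 and replicate 2 signal, by distance on the log10 scale over 1462 genes, were Y54G2A.45, wwp-1 and unc-26. Their distances were 0.00714, 0.0162 and 0.0252. The peak of Y54G2A.45 had signals of 115, 47.9 and 63.2 and also touched a tRNA gene. Those of wwp-1 and unc-26 were 217812 and 607174 bp from one. The genes most like ets-5 were fib-1, rps-16 and mut-15, which share 1 peak of signal 128, 77.1 and 45.0, at a distance of 0.0413. That peak was 10722 bp from a tRNA gene.

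The genes that work with the BAG genes were sampled by lists. The shares of these lists and of the gene families below were not compared with genes of like window length. For the BAG genes, the share among genes of like window length ran from 4.94% (flp-19) to 15.2% (egl-13). Of 23 partners and other gas-sensing genes, dmd-9 itself among them, 3 (13.0%) had a pooled thresholded peak, against 7.37% of all protein-coding genes. These were gcy-35, a soluble cyclase of other oxygen-sensing neurons, at 75.8, pde-2, a phosphodiesterase that degrades cyclic nucleotides, at 73.1, and unc-31, needed for neuropeptide release, at 72.4. The gcy-35 summit was 25 bp from a tRNA gene, and those of pde-2 and unc-31 were in introns far from any. In replicate 1, 2 of the 23 passed, pde-2 and the channel subunit gene cng-3, against 3.58% of all genes. In replicate 2, 0 of 23 passed, against 3.35%. The gene cng-3 was chosen for mention after its value was seen.

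Of 33 guanylate cyclase genes, 5 (15.2%) had a pooled thresholded peak, gcy-33 among them, against 7.37% of all genes. A peak over 100 bp from a tRNA gene was found at 3 of the 33, against 6.50% of all genes. The strongest after gcy-33 was that of odr-1, a receptor-type cyclase of olfactory neurons, at 93.9 in an intron, which passed in replicate 1 but not in replicate 2. In replicate 2, gcy-33 was the only cyclase gene that passed. Of 31 FLP neuropeptide genes, 2 (6.45%) had a peak, near the 7.37% of all genes. These were flp-34 at 67.0 and flp-23 at 58.6, and neither passed in a replicate. Of 9 ETS genes, ets-5 was the only 1 with a peak (11.1%), and of 5 SOX genes 0 had one, beside the same 7.37% of all genes. The median percentile of the strongest peak was 71.5 for the partners, 71.1 for the cyclases, 50.4 for the FLP genes, 54.6 for the ETS genes and 67.8 for the SOX genes.

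The dmd-9 gene itself, on chromosome IV, had 7 pooled ranked peaks and no thresholded peak in any list. Its strongest had a signal of 60.0 pooled, 31.5 in replicate 1 and 24.6 in replicate 2, the 88.0th, 87.5th and 58.5th percentile. It was thus higher than gcy-9 in the pooled list and far lower than gcy-9 in replicate 2.

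The core of the DM-domain motif, ACANTGT, was searched for on both strands within 100 bp of each summit. It was in 0 of the 9 strongest pooled peaks of the BAG genes and in 4.93% of all pooled thresholded peaks. In promoters, taken as 250 bases before to 50 after the 5' end, it was in those of gcy-33 and tax-4, 2 of 10, against 8.63% of all promoters. The gcy-33 promoter, chrV:12001748-12002047 on the reverse strand, is shown because its outer 46 bp lie under the peak, with the core in capitals.
gcy-33 promoter: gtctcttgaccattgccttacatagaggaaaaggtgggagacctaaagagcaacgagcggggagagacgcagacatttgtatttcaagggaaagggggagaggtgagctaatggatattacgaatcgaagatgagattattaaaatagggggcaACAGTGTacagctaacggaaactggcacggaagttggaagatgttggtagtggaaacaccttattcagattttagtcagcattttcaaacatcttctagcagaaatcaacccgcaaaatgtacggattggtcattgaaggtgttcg

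The core in the gcy-33 promoter began at -96, which is 251 bp from the pooled summit and outside the peak. No match says only that these letters were not in the windows searched.

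The ETS core, CCGGAA or TTCCGG on the other strand, was in the promoters of 5 of the 10 BAG genes, against 8.56% of all promoters. ETS-5 is known to act on BAG genes through such sites, and the list of genes was drawn up with that knowledge, so the count is a description. The cores lay between -190 and -117 in all 5 genes, 2 of them in flp-19. The 30 bases around each are shown 5′ to 3′ on the gene's strand, from the RefSeq genome, with the core in capitals, to let the promoters be compared.
gcy-31: tatgtgttagcaCCGGAAgtggtacgtggc
gcy-9: tccgatgggcccTTCCGGcatgataagaag
ets-5: tcgattatcaaaCCGGAAatttgaacggaa
flp-17: ggaaattcggagCCGGAAatgcattaggaa
flp-19 outer core: caactttcgtgcTTCCGGatatcttcaaat
flp-19 inner core: cactttcttattTTCCGGgctcgaaatact

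None of these promoters held a thresholded DMD-9 peak. At ets-5, the core lay between -172 and -167 and the summit of the thresholded DMD-9 peak at -1185, so the core was outside that peak. A weaker ranked peak with its summit at -296 spans the core. It had a pooled signal of 28.9 and an IDR of 0.423 and did not pass. The ETS core was in 1 of the 9 strongest peaks of the BAG genes, that of egl-13, and in 7.40% of all pooled thresholded peaks. The tRNA B box was in 13.6% of thresholded peaks by the same 201-bp window, in 3.45% of those away from tRNA genes, and among the BAG genes in that of ets-5. At gcy-33 it lay inside the peak but ran past the edge of that window.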

How the data were processed

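DMD-9 ChIP-seq peak lists from 2 replicates were used. No aligner or peak caller is named in the labels or file headers. As the labels have it, the lists are on ce11, and each deposited list gives peak signal (column 7), a −log10 q-value and, in ranked lists, a −log10 global IDR, treated as a score. The signal is the authors' own and is not scaled between lists, read depth is unknown, and no interval that needs it is given. All peaks in each thresholded list had a global IDR under 0.01. The remaining 16 columns of paired calls in the pooled and conservative ranked lists could not be tied to a replicate and were not used.

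Genes, tRNA genes and 5' ends came from Ensembl release 115 (WBcel235), tRNA types and sequences from RefSeq. Window counts, percentiles (ties counted as equal parts, genes with no ranked peak at 0) and motif searches were computed with Python 3.11.15, pandas 2.3.3 and numpy 2.4.6, and figures with matplotlib 3.10.9. Window assignment was tested on simulated peaks. Of 65 pooled peaks past the threshold but missing from the thresholded list, 0 were in a BAG window. Replicates were compared by rank. Alternatives were the conservative list, each replicate alone, stricter IDR and q-values, windows of 1000 and 5000 bp or upstream only, any overlap, nearest gene, and no peaks near tRNA genes. Named genes were the 10 BAG genes, dmd-9, genes at or next to their peaks, up to 4 genes a list by signal and the 3 most like genes. The members and lists were chosen with earlier results of these data known.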

Additional observations from a re-analysis of the deposited data

How the results depend on the processing

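The count of BAG genes with a thresholded peak was 2 and ranged from 1 to 2 when either replicate was left out, since ets-5 did not pass in replicate 2. It was 0 without peaks within 100 bp of a tRNA gene and 1 (gcy-33) with 1000 bp upstream. It was 3 with 5000 bp upstream, which adds gcy-9, and 2 in each of the 6 other alternatives: the conservative list, a global IDR of 0.001 or under, q of 0.05 or under, upstream only, any overlap and the nearest 5' end. The share of all protein-coding genes, 7.37%, was 7.17% in the conservative list, 3.35% to 3.58% with either replicate left out, 2.88% at an IDR of 0.001, 4.10% at a q of 0.05, 6.50% without peaks near tRNA genes, 5.95% and 10.6% with 1000 and 5000 bp upstream, 5.05% upstream only, 7.83% by any overlap and 4.69% by the nearest 5' end. The median percentile of the BAG genes, 77.7, was 66.7 to 75.4 with either replicate left out, 70.5 without peaks near tRNA genes, 68.6 with 5000 bp upstream and 67.4 upstream only, and it was 81.4 with 1000 bp upstream, 78.0 by the nearest 5' end, 77.8 in the conservative list and 76.8 by any overlap. The gcy-33 percentile, 97.4, was 96.4 to 97.8 with either replicate left out, 48.6 without peaks near tRNA genes, 96.0 with 5000 bp upstream and 98.5 by the nearest 5' end. Beyond leaving out the peaks in question or a replicate, the cause of these moves was not tested. With 2 replicates, unscaled signals and no read counts, precision is limited. No paired analysis was possible because there was 1 group.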
